A study of Mus musculus with 6 samples.

Results

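Fgf21, its co-receptor beta-klotho (Klb) and the FGF receptors Fgfr1, Fgfr2, Fgfr3 and Fgfr4 were read in the livers of fasted mice that lacked the transcription factor CREBH, which the gene Creb3l3 encodes, and of wild-type mice. These 6 genes of the 30869 symbols on the Illumina WG-6 bead array were chosen by name, and all 11 of its 45281 probes that carry their symbols were read. Fgf21, Klb and Fgfr4 had 1 probe each, Fgfr1 and Fgfr3 had 2 each and Fgfr2 had 4. The groups were 3 livers of genotype Creb3l3 KO and 3 wild-type (WT) livers. All 6 mice were male C57BL/6 littermates on normal chow, had fasted for 24 h and gave 1 array each. The sources used here give neither their age nor how the Creb3l3 allele was made.

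FGF21 is a hormone that hepatocytes secrete during fasting, when the nuclear receptor PPARA is active, and it acts on fat and brain through an FGF receptor bound to the membrane protein beta-klotho. FGFR1 paired with beta-klotho is its best known receptor. In hepatocytes, beta-klotho paired with FGFR4 receives FGF15, an intestinal hormone that represses bile acid synthesis. FGF receptors are tyrosine kinases that signal through the adaptor FRS2 and the RAS-ERK cascade, and they induce their own inhibitors, such as sprouty proteins and DUSP6. CREBH is a membrane-anchored factor of the bZIP family, whose CREB-like members recognise the cyclic AMP response element (CRE) TGACGTCA or a single arm of it.

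The promoters of the hormone and of its co-receptor are shown because the comparison is of livers with and without a factor that acts at promoters. Both runs are the 250 bases before the annotated start, read 5′ to 3′ on the strand of the gene, from RefSeq on GRCm38.p6. Fgf21 lies on the minus strand, with its promoter at chr7:45615491-45615740, and Klb on the plus strand, with its promoter at chr5:65348161-65348410. Capitals mark matches on either strand to the motifs named after the sequences.
Fgf21 promoter: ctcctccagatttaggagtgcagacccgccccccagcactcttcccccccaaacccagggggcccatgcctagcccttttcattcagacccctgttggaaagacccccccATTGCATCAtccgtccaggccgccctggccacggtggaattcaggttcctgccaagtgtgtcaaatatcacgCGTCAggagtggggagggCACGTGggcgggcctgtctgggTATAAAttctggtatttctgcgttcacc
Klb promoter: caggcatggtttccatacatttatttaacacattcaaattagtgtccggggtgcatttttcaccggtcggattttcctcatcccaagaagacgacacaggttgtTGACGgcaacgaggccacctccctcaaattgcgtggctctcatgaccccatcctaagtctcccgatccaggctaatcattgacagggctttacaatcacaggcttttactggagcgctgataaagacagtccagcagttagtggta
The Fgf21 run held a short CRE motif (TGACG) on its other strand, 68 to 64 bases before the start. Among 32851 mouse promoter windows of this length 17.8% held that short motif. It also held the ATF4 and C/EBP composite site TGATGCAAT, on its other strand at 140 to 132 bases, which 0.167% of windows held. An E-box (CACGTG) lay at 50 to 45 bases, against 6.02% of windows, and a TATA box (TATAAA) at 28 to 23 bases, against 12.4%. The E-box contains the bZIP core ACGT, which 26.9% of windows held. The Klb run held the short CRE motif TGACG 1 time, at 146 to 142 bases. Neither run held the full CRE (1.55% of windows), the nuclear receptor motif AGGTCA (14%) or its direct repeat with 1 base between the copies, the kind of site PPARA binds (0.0335%). A match is a run of letters and not a measured binding site.

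The arrays differed in brightness, and 1 stood apart. A signal is the mean brightness of a probe's beads in arbitrary units, and a probe counts as detected at a detection p under 0.05 against the array's own control beads. Detected probes numbered 11846, 15867 and 4302 on KO arrays 1, 2 and 3, and 16224, 15832 and 15504 on WT arrays 1, 2 and 3. Mean signals were 149, 246 and 87.3 on KO arrays 1, 2 and 3, and 252, 220 and 219 on WT arrays 1, 2 and 3. KO 1 was thus dim as well, though less so than KO 3, and only KO 2 was as bright as the WT arrays. Across probes, Pearson's r between KO 3 and each remaining array was 0.676 to 0.697, whereas any pair of the remaining 5 reached 0.973 to 0.993. Results are therefore given for 5 arrays, without KO 3, and for the member probes and the named genes of the pathway lists also for all 6. The tissue label held against 7 hepatocyte markers, all detected on every array except KO 3, which detected 6. The targeted gene Creb3l3 had signals of 148, 283 and 87.9 on KO arrays 1, 2 and 3, and of 1201, 949 and 929 on WT arrays 1, 2 and 3. No source used here places its probe relative to the deleted part, so that this difference may not check the genotype.

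**Figure D1:**
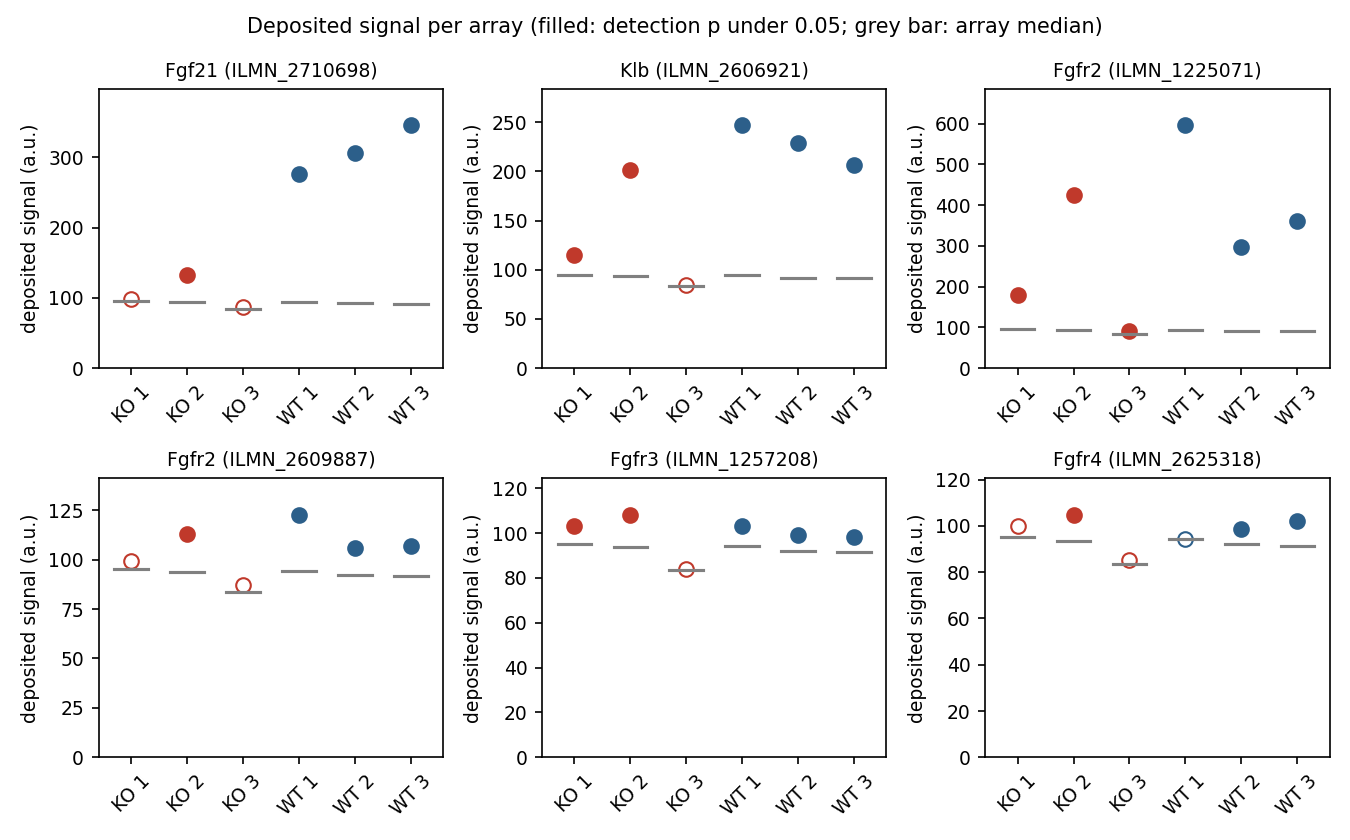
Deposited signal in arbitrary units (linear axis from 0) of the 6 probes that passed the detection filter, on KO arrays (red) and WT arrays (blue). Filled points were detected, and grey bars mark the median of all probes on that array. Fgf21 lies at 86.9 to 133 in KO livers and at 276 to 346 in WT livers, and the Fgfr3 and Fgfr4 probes lie close to the array medians in both groups.

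Of the 11 probes, 6 were detected on at least 3 of the 5 arrays and were tested. These were the probes of Fgf21, Klb and Fgfr4, 2 of the 4 Fgfr2 probes and 1 of the 2 Fgfr3 probes. Neither Fgfr1 probe was detected on any array. The 5 untested probes had signals between 77.6 and 98.7, and only 1 of their 30 array values was detected. Over all 11 probes, KO arrays 1, 2 and 3 detected 3, 6 and 1, and WT arrays 1, 2 and 3 detected 5, 7 and 6. In limma over the 5 arrays, 1 of the 6 tested probes was called at an adjusted p under 0.05, that of Fgf21, and it was lower in the KO. Among all 14345 probes tested there, 0.342% were called, 0.0627% higher and 0.279% lower. The median log2 change was -0.19 over the 6 member probes and -0.03 over all tested probes. Over all 6 arrays limma called 0 of the 6 probes, where 0% of 14494 tested probes were called and 558 probes (3.85%; 0.552% higher and 3.3% lower), Fgf21 among them, had an unadjusted p under 0.05. Over the 5 arrays 12.1% of all tested probes had one, 4.66% higher and 7.47% lower.

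Fgf21 had a lower signal on the KO arrays, near background on KO 1 and KO 3 and above it on KO 2. Its probe had signals of 98.2, 133 and 86.9 on KO arrays 1, 2 and 3, against 276, 306 and 346 on WT arrays 1, 2 and 3. All 3 WT values lay above all 3 KO values, but these signals are unnormalized, and KO 1 and KO 3 were dim arrays. The Fgf21 probe was detected on 1 of the 3 KO arrays, KO 2, and on all 3 WT arrays. Set against the median of each array, the signal stood 3.19, 39.1 and 3.21 units above it on KO arrays 1, 2 and 3, and 182, 214 and 254 units above it on WT arrays 1, 2 and 3. Subtracting a median does not correct for the dimness of an array, so the sizes on KO 1 and KO 3 cannot be set against WT. KO 2 detected about as many probes as the WT arrays. It kept a signal above background that was still well below each WT signal. The rank of the probe within its array does not depend on scaling, and on KO 2 it was below that on each WT array. On KO 1 and KO 3, where the probe was not detected, it ranks a signal not told from background. On KO arrays 1, 2 and 3, 34.5%, 19.4% and 21.2% of all probes were brighter than the Fgf21 probe, against 9.24%, 7.03% and 6.30% on WT arrays 1, 2 and 3.

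After background correction and quantile normalization of the 5 arrays, Fgf21 had a log2 signal of 5.09 ± 0.73 in the KO (SD, n = 2) and 7.73 ± 0.40 in WT (SD, n = 3). By limma it fell by 2.64 ± 0.33 on the log2 scale (SE; 95% interval -3.41 to -1.88), with an adjusted p of 0.0255. KO 1 was not above background (detection p of 0.128), and the size moved with how background was treated. Over all 6 arrays the log2 change was -2.42 ± 0.34 (SE; 95% interval -3.26 to -1.58), with an adjusted p of 0.574 by limma, and the groups did not overlap there either. Groups that do not overlap were common. Over 5 arrays 3 of the 6 member probes showed them, where 29.3% of all tested probes did (16.4% lower and 12.9% higher), and over 6 arrays 2 did, where 17.4% of all did (13.4% lower and 3.99% higher). With the bright KO 2 as the lone KO array, assumed to vary like the WT arrays, the log2 change was -2.20 (limma adjusted p = 0.0487). The limma call over 5 arrays was lost without WT 2 (adjusted p = 0.150), without WT 3 (0.0993), under median scaling (0.251) and with no detection filter (0.257), in a range of 0.000163 to 0.257 over all settings. The log2 change was -1.34 without background correction, -1.84 with an offset of 50 in place of 16, and -1.27 in the authors' deposited value table.

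In whole liver, fewer cells of a type and less RNA per cell cannot be told apart. The summed normalized signal of the 7 hepatocyte markers, in arbitrary units after neqc, was 72246 in KO 1 and 69602 in KO 2, and 67382 to 73782 in WT. The brightest of the 7, Apoa1 and Serpina1c, ranked above about 99.9% of all probes on each array. Quantile normalization gives such ranks nearly the same values on every array, so that these sums do not measure hepatocyte content. Exocrine pancreas is another tissue rich in Fgf21, and 5 of its 6 acinar markers (Amy2a5, Cpa1, Ctrb1, Prss2 and Pnlip) were detected on no array. The sixth, Cela2a, was detected on WT 1 and WT 2, and the 6 summed to 128 in KO 1 and 119.9 in KO 2, and to 120.3 to 136 in WT. Of 5 adipocyte markers, KO 1 detected 2, KO 2 detected 0 and KO 3 detected 1, and no WT array detected any. Their sums were 139 in KO 1 and 97.6 in KO 2, and 95.7 to 105 in WT, and Plin1, Cfd and Retn were detected on no array. Of the other cell types, the 5 endothelial markers summed to 1320 in KO 1 and 1440 in KO 2, and to 1624 to 1815 in WT. Of the 4 tested ones, Clec4g had a log2 difference of -0.42, whereas Pecam1 (0.27), Cdh5 (0.18) and Stab2 (0.22) lay above 0. The 6 Kupffer cell and macrophage markers summed to 1092 in KO 1 and 1251 in KO 2, and to 959 to 1080 in WT. All 5 tested ones lay above 0, Marco (0.95), Adgre1 (0.69), Cd68 (0.47), Vsig4 (0.094) and Clec4f (0.045). By limma 2 of them had an unadjusted p under 0.05, where 4.66% of all tested probes were higher at that level. For 5 cholangiocyte markers the sums were 620 and 687 in KO 1 and KO 2 and 425 to 643 in WT, and for 7 stellate cell and fibroblast markers 4026 and 4689 in KO 1 and KO 2 and 3897 to 4261 in WT. Krt19, Krt7, Epcam, Kdr, Cd5l and Lrat were detected on no array. Limma called 0 of the 22 tested markers in the 5 arrays, and 5 had an unadjusted p under 0.05, against 12.1% of all tested probes. The part of these cell types in the Fgf21 result was not tested.

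Klb, the co-receptor without which FGF21 does not signal, was not called. Its signals were 115, 201 and 84.8 on KO arrays 1, 2 and 3, against 247, 229 and 206 on WT arrays 1, 2 and 3. Each KO value lay below each WT value, but KO 2 lay only just below WT 3. These signals are unnormalized too, and KO 1 and KO 3 were dim arrays. Klb was detected on 2 of 3 KO arrays and on 3 of 3 WT arrays. On KO arrays 1, 2 and 3, 14.9%, 12.4% and 38.8% of probes were brighter than that of Klb, against 10.2%, 9.36% and 10.3% on WT arrays 1, 2 and 3. In the 5 arrays its log2 signal was 6.44 ± 0.30 in the KO (SD, n = 2) and 7.13 ± 0.12 in WT (SD, n = 3). The log2 change was -0.68 ± 0.19 (SE; 95% interval -1.11 to -0.25; limma adjusted p = 0.252), and over all 6 arrays -1.26 ± 0.53 (95% interval -2.54 to 0.031; limma adjusted p = 0.653). The value over 6 arrays thus rests in part on KO 3, where the probe was not detected. Over 5 arrays, the log2 change of Klb was -0.89 without KO 2, a setting that leaves the dim KO 1 as the lone KO array. Without KO 1 it was -0.48.

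**Figure D2:**
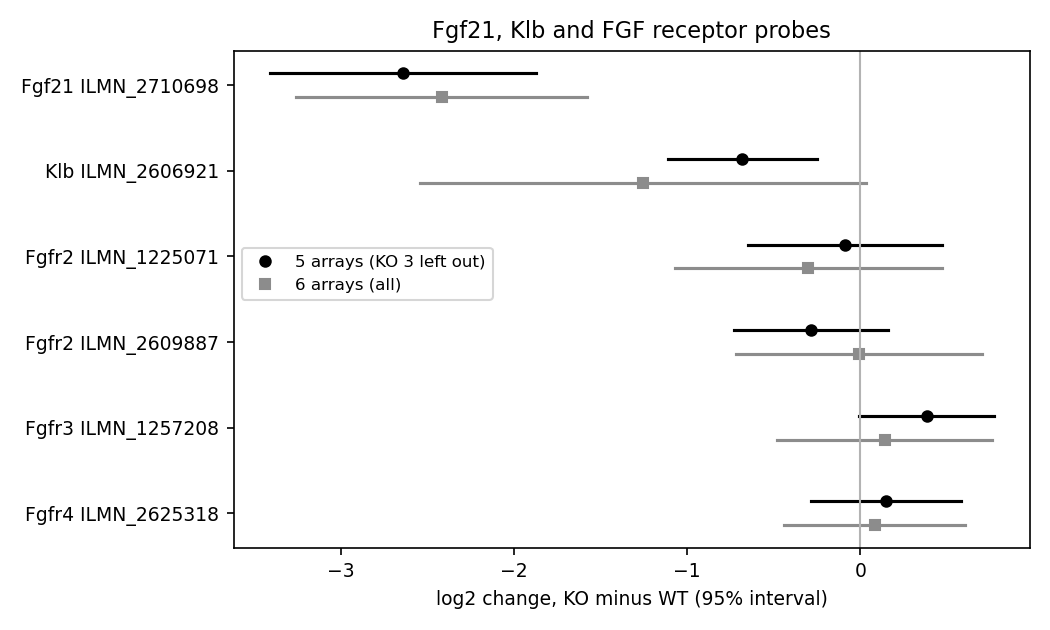
Log2 change, KO minus WT, of the 6 tested probes with 95% intervals from limma, over 5 arrays without KO 3 (black circles) and over all 6 (grey squares). The Fgf21 interval lies between -3.41 and -1.88 over 5 arrays, and the intervals of both Fgfr2 probes, of Fgfr3 and of Fgfr4 include 0 in both sets.

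Fgfr2, a receptor tyrosine kinase with an alternatively spliced ligand-binding domain, had the brightest FGF receptor probe. That probe, ILMN_1225071, gave signals of 180, 424 and 90.0 on KO arrays 1, 2 and 3, against 595, 297 and 362 on WT arrays 1, 2 and 3. KO 2 lay inside the WT range, and the WT livers themselves were spread. It was detected on all 6 arrays, and was the only member probe detected on KO 3, with a detection p of 0.0363. The normalized log2 signal was 8.10 ± 0.01 in the KO (SD, n = 2) and 8.19 ± 0.42 in WT (SD, n = 3), a difference of -0.09 (95% interval -0.65 to 0.47; limma adjusted p = 0.899). Over all 6 arrays the difference was -0.30 (95% interval -1.07 to 0.47). Without WT 1, whose signal was the highest, the difference was 0.13.

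The second tested Fgfr2 probe, ILMN_2609887, was dim. It had signals of 99.2, 113 and 87.3 on KO arrays 1, 2 and 3, against 123, 106 and 107 on WT arrays 1, 2 and 3, and the groups overlapped. Its log2 difference was -0.28 (95% interval -0.73 to 0.16; limma adjusted p = 0.568) over 5 arrays and -0.0087 over 6. The 2 untested Fgfr2 probes gave 1 detected value, on WT 2. No source used here says which transcripts of Fgfr2 each probe matches.

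Fgfr3, a receptor that also binds FGF ligands of the endocrine group in the presence of a klotho protein, was measured near background. Its tested probe, ILMN_1257208, had signals of 103, 108 and 84.1 on KO arrays 1, 2 and 3, against 103, 98.9 and 98.3 on WT arrays 1, 2 and 3. KO 1 and WT 1 had nearly the same deposited signal, although KO 1 detected fewer probes. In the 5 arrays it stood at 5.09 ± 0.23 in the KO (SD, n = 2) and 4.71 ± 0.02 in WT (SD, n = 3), a log2 difference of 0.38 (95% interval -0.0051 to 0.77; limma adjusted p = 0.416) that stood at 0.25 without KO 1. The normalized groups did not overlap over 5 arrays, which 12.9% of tested probes showed in this direction, and overlapped over 6, where the difference was 0.14 and turned to -0.0095 under median scaling. The other Fgfr3 probe was detected on no array.

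Fgfr4, the receptor through which hepatocytes sense FGF15, also had a dim probe here. Its signals were 99.97, 105 and 85.5 on KO arrays 1, 2 and 3, against 94.4, 98.5 and 102 on WT arrays 1, 2 and 3, and the groups overlapped. It was detected on 1 of 3 KO arrays and on 2 of 3 WT arrays. The log2 difference was 0.15 over 5 arrays (95% interval -0.29 to 0.58; limma adjusted p = 0.770) and 0.082 over 6 (limma adjusted p = 0.833), where median scaling turned it to -0.014. A dim probe does not show that the transcript is rare, since probes differ in brightness: the brightest probe for albumin, the most abundant liver secretory protein, had signals of only 198 to 223 in WT. No level of 1 receptor can therefore be set against another's.

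Fgfr1, the receptor best known for carrying the FGF21 signal in fat, was not measured above background. Its probes had signals of 77.6 to 98.3 over all 6 arrays, with detection p-values of 0.0524 to 0.973. With no filter their log2 differences over 5 arrays were 0.047 (95% interval -0.27 to 0.36) and 0.017 (95% interval -0.19 to 0.23). Over all 6 arrays they were 0.74 (95% interval -0.85 to 2.32) and -0.0061 (95% interval -0.18 to 0.17). At these signals the intervals bound the probe and not the transcript.

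**Figure D3:**
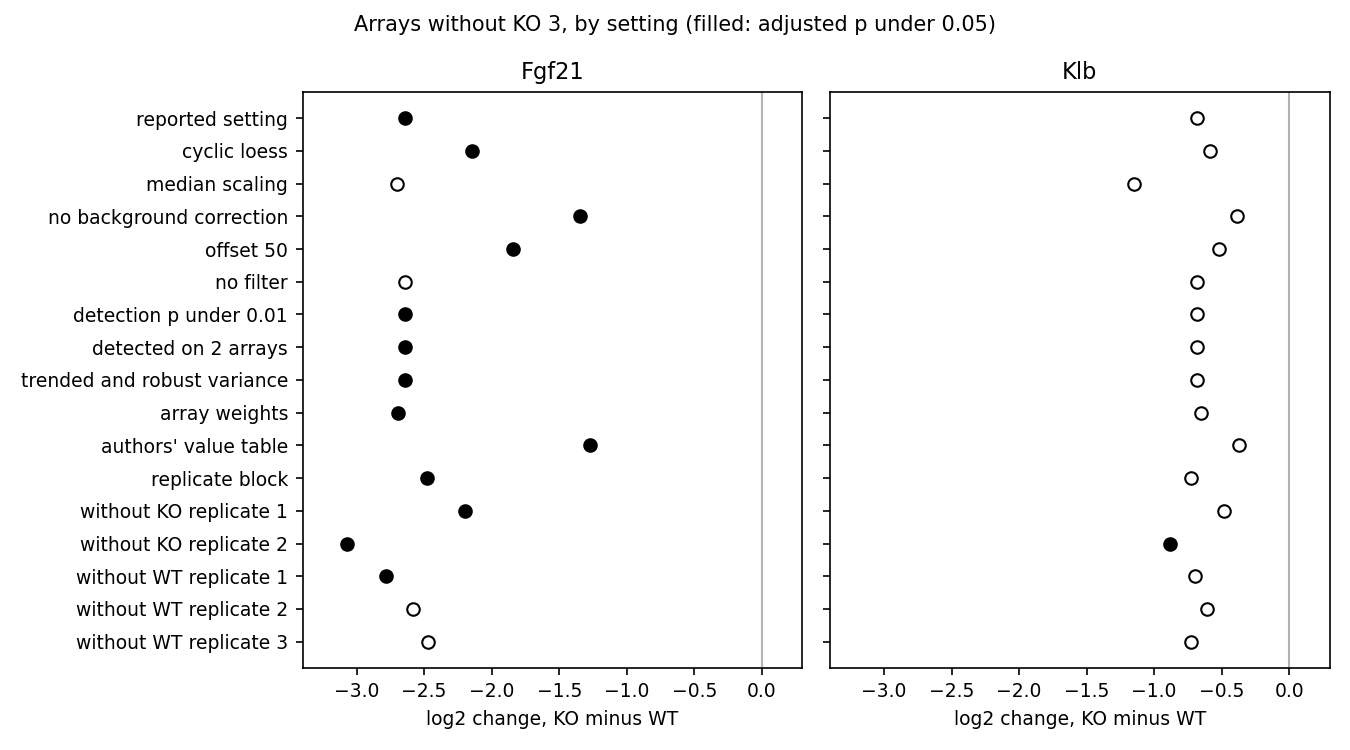
Log2 change of Fgf21 and of Klb, KO minus WT, in the arrays without KO 3 under the reported setting and each alternative. Filled points have an adjusted p under 0.05 by limma. Fgf21 ranges from -3.07 to -1.27 and is below 0 in all 17 fits, with 13 of them called, and Klb ranges from -1.15 to -0.37 with 1 called.

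The tested genes whose profile over the 5 arrays lay nearest to that of Fgf21 were named by the smallest root mean square difference of centred log2 signals. They were 2010003K11Rik (0.12 log2 units), 1190007I07Rik (0.26), the mitochondrial carrier Slc25a30 (0.29), the muscle LIM protein Csrp3 (0.35) and the lipid droplet protein Cidec (0.36). Their log2 changes were -2.51, -2.67, -2.18, -2.01 and -2.32 in that order, and being lower in the KO is what the choice selects for. Signals of Csrp3 were 103, 147 and 84.2 on KO arrays 1, 2 and 3, and 283, 266 and 291 on WT arrays 1, 2 and 3. The nearness covers 5 arrays only and says nothing of shared control.

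Genes around FGF21 were read as 7 lists with 88 entries, of which 45 were tested in the 5 arrays with the brightest tested probe of each gene. Limma called 0 of the 45 higher and 2 lower, where 0.0627% of all tested probes were called higher and 0.279% lower. The 2 were Ppara and Creb3l3, and Creb3l3 is the targeted gene, so that its call is no result about FGF21. Over all 6 arrays limma called 0 of 46. There 5 were lower at an unadjusted p under 0.05, Creb3l3 among them, where 3.3% of all tested probes were. Adding KO 3 turned the sign of 13 of the 45 genes. Creb3l3 and Ppara belong to the factors known to act on Fgf21 transcription, of which 11 of 14 were tested. With the targeted Creb3l3 counted, 9 lay below 0 and the median log2 change was -0.21 (-0.71 over 6 arrays). Of all tested probes, 54.7% lay below 0 over 5 arrays and 72.7% over 6, with medians of -0.03 and -0.28. Ppara, the fasting-activated nuclear receptor that drives Fgf21, had signals of 96.0, 103 and 77.5 on KO arrays 1, 2 and 3, against 144, 127 and 131 on WT arrays 1, 2 and 3. It fell by 1.24 ± 0.17 on the log2 scale (SE; limma adjusted p = 0.0345), was detected on KO 2 alone among the KO arrays, and over all 6 arrays stood at -1.25 (adjusted p = 0.653). The deacetylase Sirt1 (0.31, adjusted p = 0.469) and the nuclear receptor Ppard (-0.52, adjusted p = 0.596) did not pass in limma. Over 6 arrays Sirt1 turned to -0.23 and Ppard stood at -0.72.

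Among the other FGF ligands, 16 of 21 were detected on no array, and 1 was tested. That was Fgf1, which binds all FGF receptors, with signals of 163, 300 and 91.3 on KO arrays 1, 2 and 3 and of 483, 411 and 422 on WT arrays 1, 2 and 3. Its log2 change was -0.74 ± 0.17 (SE; 95% interval -1.13 to -0.35; limma adjusted p = 0.184), and -0.55 over 6 arrays. Fgf15 was detected on 1 array. Of 6 klotho relatives, decoys, carriers and the protease that inactivates FGF21, 2 were tested and neither passed in limma, nor had an unadjusted p under 0.05, the decoy receptor Fgfrl1 with a log2 change of 0.42 (adjusted p = 0.559) and the carrier Fgfbp3 with -0.28 (adjusted p = 0.598). Over 6 arrays Fgfrl1 stood at 1.26 and Fgfbp3 at -0.36.

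Downstream of the receptors, 14 of 19 adaptors and RAS-ERK genes were tested and none was called by limma, with 8 below 0, 6 above and a median log2 change of -0.03 (-0.21 over 6 arrays). Map2k1 stood at -0.37 and turned to 0.22 over 6 arrays, Sos2 at -0.21 (-0.43 over 6) and Shc1 at 0.23 (0.28 over 6). Feedback inhibitors and immediate targets had 6 tested of 15, of which 5 lay below 0, with a median of -0.59 (-0.88 over 6 arrays). Limma called 0 of these 6, and 2 were lower at an unadjusted p under 0.05, where 7.47% of all tested probes were. The ERK phosphatase Dusp6 had signals of 216, 547 and 90.4 on KO arrays 1, 2 and 3, against 856, 578 and 813 on WT arrays 1, 2 and 3 (log2 change -0.66, limma adjusted p = 0.289, and -0.94 over 6 arrays). The immediate-early factor Egr1 had signals of 213, 682 and 87.1 on KO arrays 1, 2 and 3, against 2052, 602 and 1756 on WT arrays 1, 2 and 3 (-1.35, limma adjusted p = 0.341, and -2.39 over 6 arrays). For Egr1 the deposited signal of KO 2 lay above that of WT 2, within a wide WT spread. The immediate-early factor Fos stood at -1.30 (-1.60 over 6 arrays) and the inhibitor Spred1 at -0.52 (-0.82 over 6).

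**Figure D4:**
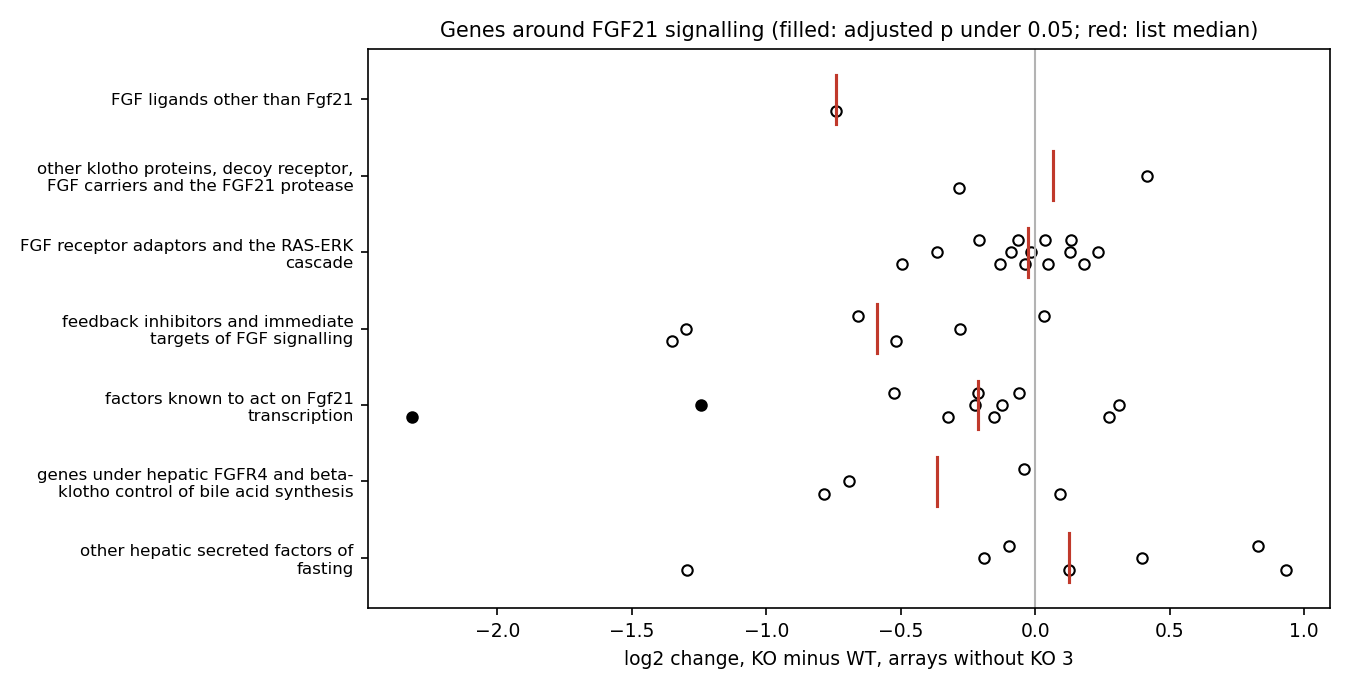
Log2 change, KO minus WT, of the 45 tested genes of 7 lists in the arrays without KO 3, 1 point a gene, with list medians in red. Filled points, Ppara and the targeted gene Creb3l3, have an adjusted p under 0.05 by limma, and the other 43 genes do not.

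Of 5 listed bile acid genes, 4 were tested and 0 called by limma, with a median log2 change of -0.37 (-0.64 over 6 arrays). Among these, 2 were lower at an unadjusted p under 0.05, where 7.47% of all tested probes were. Cyp7a1, the rate-limiting enzyme of bile acid synthesis, had signals of 155, 408 and 84.9 on KO arrays 1, 2 and 3, against 711, 425 and 452 on WT arrays 1, 2 and 3 (-0.79, limma adjusted p = 0.241, and -1.82 over 6 arrays). The sterol 12-alpha-hydroxylase Cyp8b1 stood at -0.69 (limma adjusted p = 0.250), and at -0.45 over 6 arrays. The bile acid importer Slc10a1 stood at -0.041 and the exporter Abcb11 at 0.094, and over 6 arrays they turned to 0.30 and -0.83. Of 8 other listed factors that the liver secretes, 7 were tested and limma called 0. There 3 had an unadjusted p under 0.05, Enho and Fst above 0 and Igfbp1 below, where 12.1% of all tested probes had one. Igfbp1, a binding protein of insulin-like growth factors, had signals of 125, 373 and 89.8 on KO arrays 1, 2 and 3, against 577, 412 and 539 on WT arrays 1, 2 and 3 (-1.29, limma adjusted p = 0.224, and -1.25 over 6 arrays). Enho stood at 0.93 (limma adjusted p = 0.139), follistatin (Fst), an activin-binding protein, at 0.83 (adjusted p = 0.156) and Angptl8 at 0.40 (adjusted p = 0.662). These values rest on leaving out KO 3, since over all 6 arrays Enho stood at 0.097, Fst at 0.23 and Angptl8 at -0.65.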

How the data were processed

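Liver RNA of 3 Creb3l3 KO and 3 WT mice was hybridised to 1 bead array each. Per the file headers, each deposited table gives an average signal, a linear intensity per probe without normalization, and a detection p-value, both made with BeadStudio 3 per the submitters' processing notes. The authors' deposited value table holds linear intensity values that matched quantile-normalized signals, with medians of 91.7, 91.7 and 91.6 in KO columns 1 to 3 and 91.7 in each WT column. Its columns for WT 2 and WT 3 matched the arrays of WT 3 and WT 2. Its scale and lack of centring were thus settled, and no source used here names its method.

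Signals were processed with neqc (normexp from detection p-values, offset 16, quantile normalization, log2) in limma 3.58.1 and R 4.3.3. A probe was kept if 3 or more arrays of the fit detected it at p under 0.05, and genotype was the only term. Two-sided p-values were adjusted by Benjamini-Hochberg across every kept probe. The fit was tested on simulated data with the same spread for every probe and both groups and no dim array. That test checks the code and not the calls made here. Symbols of listed genes were updated through a GRCm38.p6 gene table. Figures used matplotlib 3.10.9.

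Members, lists, motifs and the choice to leave out KO 3 were made with earlier results of these data known. Named genes were all member probes, up to 4 tested genes of each list with the smallest p, Creb3l3, Ppara and the 5 genes nearest to Fgf21. The values of 1 listed gene are not reported here. Replicates are separate mice, and their number limits the precision. Same-numbered KO and WT arrays did not deviate together (r of -0.045, -0.048 and 0.037), so the numbers were not taken as pairs.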

Additional observations from a re-analysis of the deposited data

How the results depend on the processing

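Over 5 arrays, 49 probes were called, and 83 with cyclic loess, 4 with median scaling, 89 without background correction, 108 with an offset of 50, 1 with no filter, 122 with a trended and robust variance, 32 with array weights and 83 in the authors' deposited table. Leaving out 1 mouse gave 9 to 2234, with 2234 without KO 2, 41 without KO 1, 15 without WT 1 and 9 without WT 2 or WT 3. Over all 6 arrays the counts were 0, and 3 with cyclic loess, 5 with a trended and robust variance and 2832 with array weights, with 0 to 49 when 1 mouse was left out, the 49 without KO 3. Median scaling moved the median log2 change of all probes to -0.42 over 5 arrays and -0.87 over 6. Fgf21 kept its direction in all 33 alternatives of both sets, though these reuse the same arrays and are not separate checks. Over 5 arrays it kept its call in 12 of 16 and lost it with median scaling (-2.70), with no filter (-2.64) and without WT 2 or WT 3, in a range of -3.07 to -2.20 with 1 mouse left out. Over 6 arrays it gained a call with array weights (-2.90), where 2832 of 14494 tested probes were called, and without KO 3. It ran from -2.64 to -2.20 with 1 mouse left out and from -2.93 to -1.11 over all alternatives. The fit without KO 3 is the reported fit over 5 arrays.

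Leaving out 1 mouse gave -0.89 to -0.48 for Klb and -0.29 to 0.13 (without WT 1) for the bright Fgfr2 probe over 5 arrays. Over 6 arrays, array weights called 2 of the 5 tested Klb and receptor probes, Klb (-0.80) and Fgfr3 (0.45). Of all 14494 tested probes that setting called 2832, with 1030 higher and 1802 lower, so such calls were common. Fgfr3 turned to -0.0095 and Fgfr4 to -0.014 under median scaling, and with 1 mouse left out Fgfr3 ran from -0.035 (without KO 1) to 0.38 and Fgfr4 from -0.032 (without WT 1) to 0.15. The dim Fgfr2 probe turned to 0.0042 without background correction, 0.0066 with an offset of 50 and 0.00022 in the deposited table, and ran from -0.28 to 0.22 with 1 mouse left out, above 0 without KO 1 (0.22), KO 2 (0.028) or WT 1 (0.077). The causes were not tested. With the replicate number as a replicate block, 47 probes were called over 5 arrays and 0 over 6, Fgf21 stood at -2.48 (limma adjusted p = 0.000163) over 5, and no member call changed. A detection p under 0.01 left 21 detected member values where 28 were detected under 0.05. No slide was named in the headers, so a slide block was not run. Signals near background limit Fgf21 in the KO, Fgfr3, Fgfr4 and Fgfr1. Fgfr3 could not be tested at a detection p under 0.01, and Fgfr4 not in every setting.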

Other observations

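The Fgfr1 probe ILMN_2727068 had its lowest deposited signal on KO 3. The signals were 98.3, 92.3 and 88.8 on KO arrays 1, 2 and 3, with a detection p of 0.0812 on KO 3, and 90.7, 96.2 and 92.0 on WT arrays 1, 2 and 3. In the authors' deposited value table the same probe stood at 95.8, 90.6 and 162 in KO columns 1, 2 and 3, and at 88.5, 92.2 and 95.5 in WT columns 1, 2 and 3, so that the dimmest array had the highest value. On KO 3, 12.1% of probes were brighter than this one, against 34.3% on KO 1 and 56.6% on KO 2, and 69.7%, 35.2% and 47.3% on WT arrays 1, 2 and 3.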
